A study of Mus musculus with 8 samples.

Results

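The regions described here are the peaks of RNA bound with the protein NONO in fasted mouse liver nuclei that overlapped a NONO peak 2 h after re-feeding and another 10 h after re-feeding, each by at least 1 bp, and that no peak of the IgG control overlapped. There were 5050 of them among 38209 fasted peaks, a share of 13.2% (95% exact binomial interval 12.9 to 13.6%, here as elsewhere covering counting error only). Of the 25317 fasted peaks free of IgG peaks they made up 19.9%, and of the 10419 fasted peaks present at all 3 times 48.5%, the other 5369 of these being met by an IgG peak. All 4 lists together held 206501 peaks. These regions were chosen by the overlap of the deposited peak calls, which rest on tag counts and fold over input, so their presence at 3 times is not a finding, and every tag count below comes from the same lists and is given as a description.

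The nuclei came from livers of 14-week-old wild-type C57BL/6 mice, housed under a 12 h:12 h light:dark cycle with food in the dark phase alone for 1 week. Livers came from fasted mice at zeitgeber time 10, from mice re-fed for 2 h at zeitgeber time 14 and from mice re-fed for 10 h at zeitgeber time 22. Hour of day and food therefore changed at once and cannot be told apart. Each time had 1 NONO immunoprecipitate and 1 input, and an IgG immunoprecipitate with its input served as control, its feeding state not stated. Every library pooled 2 experiments, so no difference between times has a replicate error and no test was made. The NONO libraries held 21032764 tags (fasted), 21091048 tags (2 h) and 18275033 tags (10 h), and the IgG library 18995778 tags. A single peak took 37.5% of the IgG tags, whereas the largest peak of a NONO library took 0.0866 to 0.301%.

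NONO belongs to the family of DBHS proteins (Drosophila behaviour, human splicing), which carry RNA recognition motifs and act as dimers, mostly with SFPQ or PSPC1. It takes part in splicing, transcription and the retention of RNA in the nucleus, and it is a core protein of paraspeckles, nuclear bodies assembled on the long non-coding RNA Neat1. RNA immunoprecipitation collects the RNA that comes down with a protein and its complexes, and sequencing it from nuclei yields unspliced precursors, whose introns make up most of the sequence. In liver, re-feeding after a fast brings insulin and nutrients that change the transcription of many metabolic genes within hours.

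Among the 5050 regions, 19 lay over microRNA hairpins, 22 of them in all. Their annotated sequences are shown to identify the precursors under the peaks, and no read sequence was examined. MicroRNAs are cut from such hairpins in the nucleus while the host transcript is still there, so a nuclear library can hold the uncut precursor. These regions were singled out after their values were seen. The let-7 hairpins recurred most: 6 mature let-7 sequences lay under them and shared the seed GAGGUAG, while miR-29b and miR-29c shared AGCACCA and miR-148a and miR-148b shared CAGUGCA. Mature sequences from RefSeq (GRCm38.p6, the same build as mm10) follow, 5′ to 3′, with the seed, bases 2 to 8, in capitals.
mmu-let-7a-5p: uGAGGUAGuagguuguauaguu
mmu-let-7d-5p: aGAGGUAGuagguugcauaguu
mmu-let-7f-5p: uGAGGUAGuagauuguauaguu
mmu-let-7g-5p: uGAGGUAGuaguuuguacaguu
mmu-let-7c-5p: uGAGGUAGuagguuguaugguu
mmu-let-7b-5p: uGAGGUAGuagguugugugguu
mmu-miR-29b-3p: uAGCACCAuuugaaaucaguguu
mmu-miR-29c-3p: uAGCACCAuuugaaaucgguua
mmu-miR-148a-3p: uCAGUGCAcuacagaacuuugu
mmu-miR-148b-3p: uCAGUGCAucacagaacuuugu
mmu-miR-21a-5p: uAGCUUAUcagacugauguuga
mmu-miR-101b-3p: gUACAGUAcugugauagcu

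The strongest of these regions held Mir21a, and another held 3 let-7 hairpins in a row. The hairpins are shown whole because the peaks cover the precursor and not the mature arm alone. Mir21a lay at chr11:86584067-86584158, Mirlet7d at chr13:48536012-48536114, Mirlet7f-1 at chr13:48537829-48537917 and Mirlet7a-1 at chr13:48538179-48538272, all on the minus strand of mm10. Capitals mark the mature 5p arm.
Mir21a hairpin: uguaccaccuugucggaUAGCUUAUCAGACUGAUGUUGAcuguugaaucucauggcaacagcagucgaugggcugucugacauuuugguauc
Mirlet7d hairpin: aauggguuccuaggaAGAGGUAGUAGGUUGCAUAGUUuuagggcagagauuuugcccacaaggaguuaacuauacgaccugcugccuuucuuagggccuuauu
Mirlet7f-1 hairpin: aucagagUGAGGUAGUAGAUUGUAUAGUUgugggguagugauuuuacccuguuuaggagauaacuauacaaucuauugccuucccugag
Mirlet7a-1 hairpin: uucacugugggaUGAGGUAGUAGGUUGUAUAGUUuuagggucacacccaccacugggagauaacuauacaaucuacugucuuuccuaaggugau

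The level of a region is given as normalized tags, the tags in the peak per 10000000 tags of its library. The Mir21a region, which spans the 3′ end of Vmp1, had 2262.7 normalized tags (fasted), 2302.4 (2 h) and 1463.2 (10 h), and it was the highest of all 5050 in the fasted list. The let-7 region, in the non-coding gene 6720427I07Rik, had 1598.9, 2007.5 and 479.3 normalized tags in the same order. Its peak was 3285 bp wide in fasted liver, 6935 bp at 2 h and 944 bp at 10 h. All 3 hairpins lay within the 2 h peak, but the 10 h peak covered Mirlet7d and neither Mirlet7f-1 nor Mirlet7a-1. Per kb of peak the same region held 487 (fasted), 289 (2 h) and 508 (10 h) normalized tags, so the low total at 10 h went with a shorter peak. Over the 22 hairpins, 22 lay under the matching 2 h peaks and 19 under the matching 10 h peaks.

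Most of the hairpin regions were higher 2 h after re-feeding than in the fast: 16 of 19 by any amount, and 6 at least 2-fold higher with 0 at least 2-fold lower. Among all fasted peaks that met a 2 h peak, 39.1% were at least 2-fold higher and 10.1% at least 2-fold lower, so these counts do not set the hairpins apart. At 10 h, 9 of 19 were above the fasted value, with 4 at least 2-fold higher and 3 at least 2-fold lower, beside 24.2% and 13% of all fasted peaks that met a 10 h peak. The 19 regions had a median of 85.1 (fasted), 138.4 (2 h) and 73.9 (10 h) normalized tags. For 4 of them a matching re-fed peak met an IgG peak.

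The let-7 regions did not share a course. The Mirlet7b region had 38.5, 147.9 and 67.3 normalized tags (fasted, 2 h and 10 h), highest at 2 h. Mirlet7c-1 had 129.3, 139.4 and 234.2 normalized tags, highest at 10 h, and Mirlet7g had 393.2, 286.9 and 176.2, highest in the fast. The Mir148a region, which lies over no annotated gene body, had 246.3, 621.6 and 475.5 normalized tags, and that of Mir148b, which shares its seed, 25.7, 77.8 and 60.2. Both were lowest in the fast and highest at 2 h. Mir101b, in an intron of Rcl1, had 803.5, 479.8 and 177.3 normalized tags, and was one of the 5 regions lowest at 10 h relative to the fast among those with single matches and at least 30 normalized tags at each time. Mir29b-2 and Mir29c shared a region with 409.4, 584.6 and 407.7 normalized tags.

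**Figure D1:**
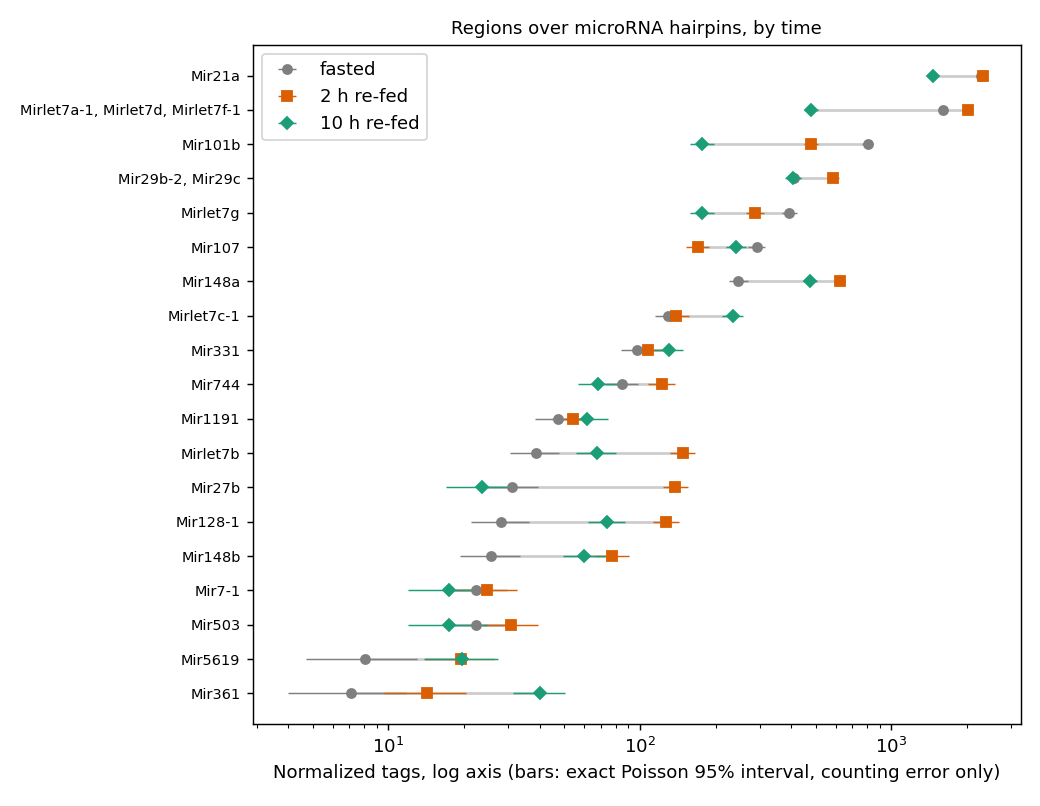
Normalized tags (tags per 10000000, log axis) of the 19 regions over microRNA hairpins in fasted, 2 h re-fed and 10 h re-fed liver nuclei, with exact 95% Poisson intervals that cover counting error only. Of the 19, 16 stand higher at 2 h than in the fast and 9 stand higher at 10 h than in the fast.

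Hairpins were met by 0.376% of the 5050 regions (0.227 to 0.587%), against 0.128% of all fasted peaks and 0.00884% (0.000224 to 0.0493%) of the 11308 fasted peaks that met no other list. Since the recurrent peaks were wider, the rate was also taken per Mb of peak: 4.05 hairpin regions per Mb (2.44 to 6.33) against 1.65 over all fasted peaks and 0.147 (0.00371 to 0.816) in the peaks seen in the fast alone. The recurrent peaks that an IgG peak met were at 0.298% and 2.52 per Mb (1.44 to 4.09), an interval that holds the 1.65 of all fasted peaks. Both kinds of recurrent peak were above the peaks seen in the fast alone. Those had fewer tags in the fast, a median of 11.4 normalized tags against 23.3 in the 5050 regions and 35.2 in the recurrent peaks that IgG met. Tag level was not adjusted for, here or for the gene parts below. Of other small RNAs, 8 regions (0.158%) lay over snRNA genes, 3 (0.0594%) over snoRNA genes and 0 over scaRNA genes. All fasted peaks had 0.0733%, 0.0864% and 0.0105% in the same order, each within the interval of the regions.

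Across the 5050 regions the normalized tags had a median of 23.3 (quartiles 15.2 and 38.5) in the fast, 33.2 (16.1 and 72.5) at 2 h and 26.8 (15.3 and 52) at 10 h. The values ran over a wide span, 4.28 to 2262.7 in the fast, 4.27 to 9296.4 at 2 h and 4.92 to 3699.6 at 10 h. Peak width moved in the same order, with medians of 735.5 bp, 1309.5 bp and 933 bp. A peak of 500 bp, the width of 1 search window, was found for 33.8% of the regions in the fast, 15.3% at 2 h and 21.7% at 10 h. Divided by width, the order turned round: 29.6 normalized tags per kb in the fast, 24.6 at 2 h and 27.3 at 10 h. The authors' fold of immunoprecipitate over input had medians of 2.62, 2.86 and 2.74 and had to reach 2 for a peak to be listed.

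**Figure D2:**
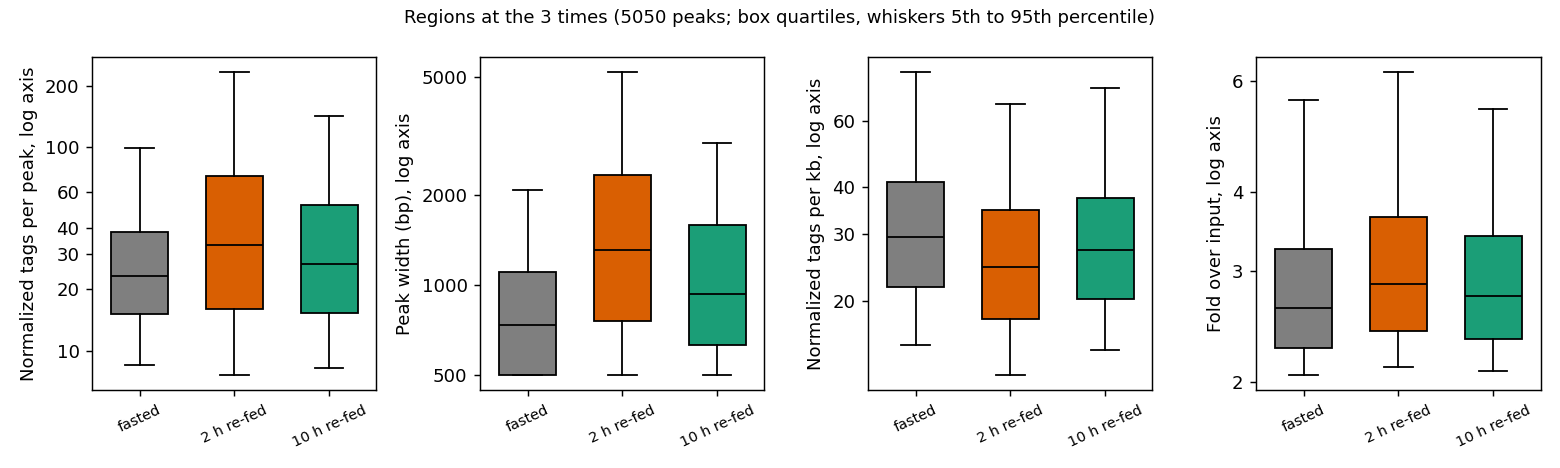
Normalized tags, peak width in bp, normalized tags per kb and fold over input of the 5050 regions at each time. Boxes span the quartiles around the median and whiskers the 5th to 95th percentile. Tags and width have their highest medians at 2 h (33.2 and 1309.5 bp), tags per kb in the fast (29.6).

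A single 2 h peak overlapped 4934 of the regions and a single 10 h peak 4950, and where there were more their tags were summed. In 3975 regions the match was one-to-one, the single peak at each re-fed time meeting no other fasted peak. Those are the single matches spoken of elsewhere. A re-fed peak that met several fasted peaks was counted in full for each. The median region was covered over 84.4% of its length at 2 h and 73.7% at 10 h, and fewer than 10% of its bases were covered in 150 and 174 regions. Although no IgG peak met the fasted peak, one met the matching 2 h peak of 1268 regions (25.1%) and the matching 10 h peak of 865 (17.1%). At the edge of the rule, the 211 regions that qualified by an overlap under 50 bp had a median of 17.6 normalized tags and 2.78-fold over input in the fast. The 2204 fasted peaks free of IgG that missed a peak of the other times but had each within 500 bp had 15.7 normalized tags and 2.86-fold.

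Tags at 2 h exceeded the fasted tags in 62.3% of the regions, with a median log2 change of 0.41 (interval of the median 0.36 to 0.46, quartiles -0.43 and 1.38). At least 2-fold higher were 1713 (33.9%) and at least 2-fold lower 644 (12.8%), beside the 39.1% and 10.1% of all fasted peaks with a 2 h match. Between 10 h and the fast the median log2 change was 0.16, with 1189 (23.5%) at least 2-fold higher and 668 (13.2%) lower, close to the 24.2% and 13% of all fasted peaks with a 10 h match. Between 10 h and 2 h it was -0.20, with 708 (14.0%) at least 2-fold higher and 1245 (24.7%) lower, against 11.8% and 31.4% over the 10419 fasted peaks found at all times. The regions thus moved somewhat less at 2 h than the recurrent peaks that IgG also met, whose median log2 change was 0.83. By their own course, 1660 regions (32.9%) stayed within 2-fold over the 3 times. Among the rest the highest value fell in the fast for 716, at 2 h for 1718 and at 10 h for 956.

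The direction of the median depended on how width was treated. Per kb of peak the median log2 change was -0.27 (2 h over fasted), -0.14 (10 h over fasted) and 0.14 (10 h over 2 h). In the 112 regions that were 500 bp wide at all 3 times it was -0.24, -0.10 and 0.21, with median normalized tags of 10.5, 9.01 and 9.85. The regions with many more tags were regions with a much longer peak: of the 1713 at least 2-fold higher at 2 h, 1548 (90.4%) had more than doubled in width and 92 were at least 2-fold higher per kb.

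The input moved with the immunoprecipitate. The input level under a peak, taken as its normalized tags divided by the authors' fold, had medians of 8.94, 11.4 and 9.68 (fasted, 2 h and 10 h). Of the 1713 regions at least 2-fold higher at 2 h, the input level was at least 2-fold higher in 1541 (90.0%) and the fold over input in 4. Of the 1189 at least 2-fold higher at 10 h, it was so in 1081 (90.9%) and 6. Over the 5050 regions the log2 changes of tags and of input had a Spearman rho of 0.956 at 2 h and 0.944 at 10 h, a description only, since the points share libraries and the input level is computed from the tags. The fold over input stayed within 2-fold of its fasted value in 92.9% of regions at 2 h and 94.8% at 10 h. It was at least 2-fold higher in 238 (4.71%) and lower in 119 (2.36%) at 2 h, beside 4.04% and 2.3% of all fasted peaks with a 2 h match. For 10 h over the fast the counts were 127 and 136, beside 2.33% and 2.59%, and for 10 h over 2 h they were 100 and 202, beside 1.52% and 2.52%. In a bulk preparation fewer nuclei of a type and less RNA per nucleus cannot be told apart.

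**Figure D3:**
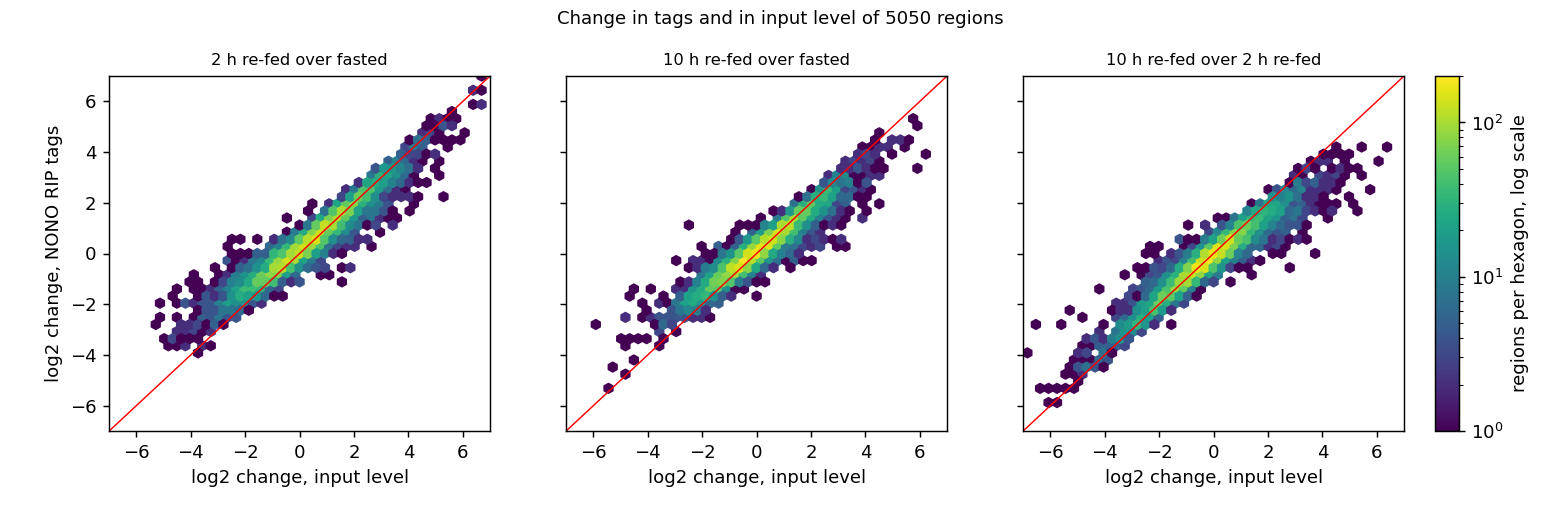
Log2 change of normalized tags (vertical) against log2 change of the input level (horizontal) for the 5050 regions, for 2 h over fasted, 10 h over fasted and 10 h over 2 h. Shading gives the number of regions and the red line equal change. The cloud lies near the line, mostly below it at large increases and above it at large decreases, with rho 0.956, 0.944 and 0.945.

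By their midpoints, 4599 of the 5050 regions (91.1%, 90.2 to 91.8%) were in introns of GENCODE M21 genes, against 90.6% of all fasted peaks and 86.6% (86.0 to 87.3%) of the peaks seen in the fast alone. Another 251 (4.97%) were intergenic, 87 (1.72%) in 3′ untranslated regions, 63 (1.25%) within 1000 bp before a gene start, 31 in non-coding exons, 15 in coding exons and 4 in 5′ untranslated regions. Any exon was touched by 511 (10.1%). Compared with peaks of the fast alone, the recurrent regions were fewer in 3′ untranslated regions (1.72% against 3.14%) and more frequent before gene starts (1.25% against 0.433%), with intervals that did not overlap. Per Mb of peak the same held, with 18.6 (14.9 to 22.9) against 52.0 (46.7 to 57.7) in 3′ untranslated regions and 13.4 (10.3 to 17.2) against 7.18 (5.31 to 9.49) before gene starts. For RefSeq windows around gene starts, counted by any overlap, the intervals did overlap: 0.792% (0.566 to 1.08%) against 0.469% (0.351 to 0.613%), and per Mb 8.53 (6.10 to 11.6) against 7.76 (5.82 to 10.2). By midpoint, all fasted peaks had 1.91% in 3′ untranslated regions, within the interval of the 5050 regions (1.38 to 2.12%). Before gene starts all fasted peaks had 0.646% (0.569 to 0.732%). The recurrent peaks that an IgG peak met had 0.726% in 3′ untranslated regions and 0.838% before gene starts. Per Mb they had 6.14 (4.37 to 8.39) and 7.08 (5.17 to 9.48), the latter near the 7.18 of the peaks of the fast alone. The higher rate per Mb before gene starts was thus not shared by the recurrent peaks that IgG met. All fasted peaks had 24.6 and 8.33 per Mb. Peaks were listed without strand and 318 regions lay over more than 1 gene, so a region names a gene by position, and overlapping or antisense genes cannot be told apart.

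**Figure D4:**
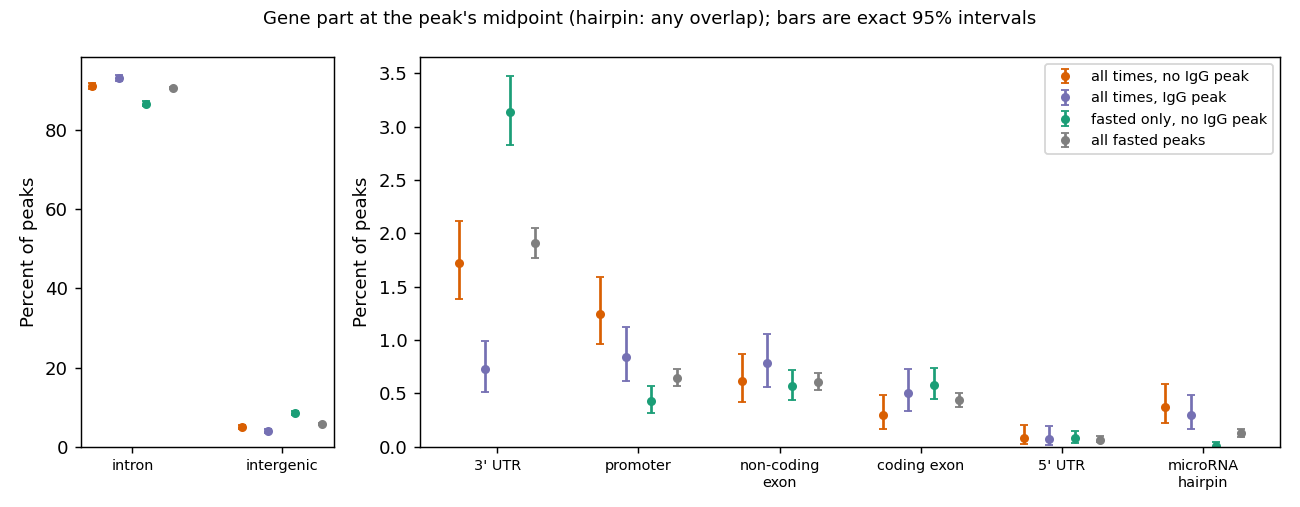
Share of peaks by gene part of the midpoint, with exact 95% binomial intervals, and of peaks that overlap a microRNA hairpin, for the 5050 regions, the 5369 recurrent peaks that an IgG peak met, the 11308 peaks of the fast alone and all 38209 fasted peaks. Introns hold 91.1% of the regions and 86.6% of the peaks of the fast alone.

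Within introns the regions were not gathered at exons. Of 4372 that could be placed in an intron of 1 gene, 1135 (26.0%, 24.7 to 27.3%) were in the first intron, which held 23.2% of the intron bases of those genes. The median distance to the nearest exon was 1944.5 bp, against 2652 bp over all fasted peaks, in introns of a median 11.75 kb against 16.574 kb. An exon was within 500 bp of 9.68% of them, against 10.96% of all fasted peaks. Their median place along the gene was 0.451 of its length from the 5′ end (quartiles 0.226 and 0.688).

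Of the gene parts with more than 4 regions, the 63 regions before gene starts had the largest share at least 2-fold higher than in the fast, 44.4% at 2 h and 33.3% at 10 h. At 2 h, 54 of 63 were above the fasted value, 28 of them at least 2-fold and 0 at least 2-fold lower, beside 47.5% and 1.27% of all fasted peaks before gene starts with a 2 h match. At 10 h, 50 of 63 were higher, 21 at least 2-fold and 1 lower, beside 34.3% and 2.86%, and for 10 h over 2 h the counts were 2 and 12, beside 5.56% and 24.1%. The shares at least 2-fold higher at 2 h and 10 h were thus near those of all fasted peaks before gene starts. The median log2 tag change was 0.91 at 2 h and 0.56 at 10 h. In the recurrent peaks before gene starts that an IgG peak met it was 1.14 and 0.82. In the 63 regions tags per kb had the same sign as tags, with median log2 changes of 0.36 at 2 h and 0.23 at 10 h, and the fold over input changed by medians of -0.02 and -0.01. Apoa2, a gene of a high-density lipoprotein protein, had a region ending 100 bp before its start with 69.4 (fasted), 147.0 (2 h) and 88.6 (10 h) normalized tags. The region before Rpl28, which encodes a ribosomal protein, had 22.8, 130.9 and 91.4, and the one before Ppib, an endoplasmic reticulum prolyl isomerase, 15.2, 100.5 and 65.1. Before Alb, the gene of serum albumin, tags were 40.9, 43.1 and 27.4, while the fold over input was 2.29, 3.21 and 5. These genes were picked after their values were seen.

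The 87 regions in 3′ untranslated regions had a median log2 tag change of -0.17 at 2 h and 0.37 at 10 h. At least 2-fold higher and lower were 18 and 12 at 2 h, beside 24.5% and 11.4% of all fasted 3′ untranslated peaks with a match. The counts were 22 and 7 for 10 h over the fast (23.1% and 12%) and 21 and 7 for 10 h over 2 h (19% and 18.3%). Cpeb4 and Cpeb2, relatives that bind cytoplasmic polyadenylation elements in mRNA, were both higher in the fast than at either later time: Cpeb4 had 469.3, 226.2 and 234.2 normalized tags (fasted, 2 h and 10 h) and Cpeb2 272.0, 47.9 and 104.0. A region over Gm13267 and Dhtkd1, a mitochondrial dehydrogenase subunit, had 290.5, 45.5 and 374.3, lowest at 2 h, where its peak was a single window of 500 bp. Sec24a, a coat protein of transport vesicles, had 484.5, 67.3 and 248.4, lowest at 2 h as well. Nono itself carried 1 region, in its 3′ untranslated region (chromosome X, 101447395 to 101448982), with 86.5, 101.5 and 114.9 normalized tags at 2.19, 2.55 and 2.24-fold over input, among the flatter courses.

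Annotated retained introns held 125 regions (2.48%), near the 2.43% of all fasted peaks. One of these lay in Hnrnpa2b1, which encodes a nuclear RNA-binding protein, with 340.4 (fasted), 546.2 (2 h) and 279.1 (10 h) normalized tags at 2.08, 2.25 and 2.34-fold over input, and its 2 h match met an IgG peak. A second kind of annotated non-coding sequence is Rab10os, an antisense RNA at the Rab10 locus, with 260.1, 185.4 and 141.2 normalized tags, highest in the fast. Its fold over input was far above the median of the regions, at 15.95, 8.46 and 8.19. The central 300 bases of both regions, chr6:51467677-51467976 (minus strand) and chr12:3238507-3238806 (plus strand) of mm10, are given as annotated in GENCODE M21 transcripts, to show the sequence under a region of low and of high enrichment. The peaks carry no strand, so the strand is that of the annotation. They have 33.0% and 51.7% G and C.
Hnrnpa2b1 retained intron: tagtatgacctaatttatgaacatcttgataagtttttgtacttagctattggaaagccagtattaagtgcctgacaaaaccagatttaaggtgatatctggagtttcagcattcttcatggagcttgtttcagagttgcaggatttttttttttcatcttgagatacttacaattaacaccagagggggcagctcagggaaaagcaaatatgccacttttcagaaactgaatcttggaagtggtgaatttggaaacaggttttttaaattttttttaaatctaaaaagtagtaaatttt
Rab10os exon: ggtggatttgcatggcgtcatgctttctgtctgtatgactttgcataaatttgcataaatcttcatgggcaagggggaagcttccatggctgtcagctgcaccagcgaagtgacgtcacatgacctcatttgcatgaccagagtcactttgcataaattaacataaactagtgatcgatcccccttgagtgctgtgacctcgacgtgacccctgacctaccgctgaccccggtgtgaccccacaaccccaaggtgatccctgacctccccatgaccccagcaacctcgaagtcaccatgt

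The regions touched 2684 genes, 2461 coding and 223 non-coding, which were 8.36% of the 32106 annotated genes, 11.2% of coding genes and 37.9% of the 7081 genes with any fasted peak. A single region was found in 1595 of them, 2 in 549, 3 or 4 in 359 and at least 5 in 181. Hosts were long: coding hosts had a median length of 67.8 kb, against 30.8 kb for coding genes with fasted peaks but no such region and 11.02 kb for coding genes without a fasted peak. Although the regions were free of IgG peaks, 2474 of the hosts (92.2%) carried an IgG peak elsewhere, and 210 carried none. Neat1 hosted 0 of the regions, its 1 fasted peak being present at all times and met by an IgG peak, and Malat1 had no fasted peak.

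The 12 hosts with most regions were Foxp1 (23), Rabgap1l (15), Ptprk (14), Strbp and Dip2c (13 each), Fgfr2, Ptprg, Rbfox2, Vps13b and Atxn1 (12 each), and Arid4b and Immp2l (11 each). Foxp1, a forkhead transcription factor, had summed normalized tags of 508.6 (fasted), 1092.3 (2 h) and 777.1 (10 h). Arid4b, a chromatin protein, had the densest regions of the 12, at 8.07 per 100 kb of gene. The annotated body of Fgfr2 spans 2960.9 kb and overlaps 48 other genes, so its count says little of Fgfr2 itself.

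Of the 12 genes with most regions, Atxn1 was the one whose regions were all higher at 2 h. All 12 in Atxn1, a chromatin-binding repressor known from spinocerebellar ataxia, were higher at 2 h, with summed normalized tags of 296.1, 1592.0 and 266.3 (fasted, 2 h and 10 h) and median log2 changes of 2.89 at 2 h and -0.19 at 10 h. These 12 met 10 distinct 2 h peaks, so some shared a match and are not separate counts. Their peaks covered 10.9 kb in the fast and 37.7 kb at 2 h, with 27.2 and 42.2 normalized tags per kb. Regions of Ptprk, Dip2c and Rbfox2 also shared 2 h peaks, with 13, 12 and 11 distinct ones. In Ptprk, a receptor tyrosine phosphatase, the sums were 258.6, 1274.1 and 987.3, with medians of 1.76 and 2.14, and 11 of 14 regions were higher at 2 h and 10 of 14 at 10 h. Strbp, an RNA-binding protein, had 537.6, 525.7 and 455.1, with medians of -0.36 and -0.45, and 5 of 13 were higher at 2 h and 3 of 13 at 10 h. Rbfox2, a splicing regulator, had 349.9, 1074.9 and 361.7, and Dip2c 295.8, 1585.5 and 359.4, so both sums were highest at 2 h, with 10 of 12 and 10 of 13 regions higher there than in the fast.

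Over the 181 genes with at least 5 regions, the gene median of the log2 change at 2 h ran between -2.46 and 4.32. It was above 0 in 141 genes, at least 2-fold higher in 62 and at least 2-fold lower in 9. At 10 h over the fast 113 were above 0, with 20 and 6 past 2-fold. All regions of a gene lay on one side of 0 in 29 genes at 2 h and 17 at 10 h. Regions of a gene that shared a re-fed peak are not separate counts, and no expected number was computed for these gene counts. The SD between gene medians was 1.09 at 2 h, and the median SD among regions of one gene 1.26, which cannot be compared directly, since a median varies less than a single region.

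Genes near the ends of that range included receptors and transcription factors. Zbtb20, a zinc finger repressor of the liver, had summed normalized tags of 163.6 (fasted), 4747.1 (2 h) and 230.4 (10 h), with 5 of 5 regions higher at 2 h. Prlr, the prolactin receptor, had 237.8, 2738.2 and 598.7, with 6 of 6 higher at 2 h and at 10 h. At the low end Gfra1, a co-receptor for glial cell line-derived factors, had 814.5, 142.3 and 107.4, and Zbtb16, a zinc finger transcription factor, 651.8, 120.9 and 105.1. In both, 0 of 5 regions were higher at either re-fed time. Erbb4, a receptor tyrosine kinase with 10 regions, had 455.5, 175.0 and 604.1, with 1 of 10 higher at 2 h and 7 of 10 at 10 h.

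Ghr, the growth hormone receptor, had the highest gene median at 2 h. Its 5 regions held 20.4, 122.2, 17.6, 97.0 and 198.3 normalized tags in the fast, 611.6, 520.1, 1556.1, 932.6 and 3962.8 at 2 h and 199.7, 417.0, 89.2, 39.9 and 431.7 at 10 h. All 5 were higher at 2 h, and 4 of 5 at 10 h. The largest, on chromosome 15 at 3581041 to 3582190, had a log2 change of 4.32 at 2 h (4.18 to 4.47, counting error only), 1.12 at 10 h and -3.20 for 10 h over 2 h. The fold over input was 2.11, 2.14 and 2.16 at the 3 times and the log2 change of the input level at 2 h was 4.30. Both matching peaks met an IgG peak, and the 2 h peak was 6527 bp wide against 1149 bp in the fast. The fasted peak covers a RefSeq start of Ghr. That start lies inside the GENCODE gene body, whose 5′ end is at 3583492, so the region is classed as intronic. All 3 peaks lie within the gene, but the 2 h peak (3575053 to 3581580) and the 10 h peak (3580621 to 3581660) end short of this start. The start is shown because the peaks differ there: chr15:3581813-3582092 of GRCm38.p6, minus strand, in the direction of transcription, with the first 30 transcribed bases in capitals. Of these 280 bases 51.8% are G or C, against a median of 52.7% over 32851 RefSeq promoter windows.
Ghr start: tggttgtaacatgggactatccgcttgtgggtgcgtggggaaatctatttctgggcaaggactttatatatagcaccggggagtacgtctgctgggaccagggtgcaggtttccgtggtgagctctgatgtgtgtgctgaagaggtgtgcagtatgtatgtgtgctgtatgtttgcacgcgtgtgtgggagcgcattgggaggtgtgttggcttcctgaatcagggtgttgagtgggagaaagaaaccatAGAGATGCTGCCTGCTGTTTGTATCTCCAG

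The other regions with large excesses at 2 h followed the same form. Gphn, which encodes the scaffold protein gephyrin, had 49.9 (fasted), 905.6 (2 h) and 54.7 (10 h) normalized tags. Hsp90b1, a chaperone of the endoplasmic reticulum, had 45.6, 801.3 and 371.0, and Rbm47, an RNA-binding protein, 32.3, 486.0 and 428.5. Wac, an adaptor protein, had 86.1, 1154.5 and 835.6, but per kb of peak its log2 change was -0.35 at 2 h and -0.27 at 10 h. Hsp90b1, Rbm47 and Wac each had a fasted peak of 500 bp and re-fed peaks of 2474 to 8537 bp that met IgG peaks. In Adk, adenosine kinase, the values were 512.1, 2739.1 and 225.4, and in a Cdh2 region 64.7, 403.5 and 51.4, so these were lower at 10 h than in the fast. Per kb of peak the log2 change of the Cdh2 region at 2 h was -0.66.

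A second set was highest at 10 h. Fn1, fibronectin, had 61.8 (fasted), 563.3 (2 h) and 702.6 (10 h) normalized tags, and Cbs, cystathionine beta-synthase, 45.2, 272.2 and 395.6. An intronic region of Mgst1, a microsomal glutathione transferase, had 51.3, 63.5 and 577.8, high at 10 h alone. Rbm15, an RNA-binding protein of the m6A writer complex, had 268.6, 135.6 and 560.3. A region over Gm49356 and Tatdn1 had 47.5, 34.1 and 185.5, and Tbca, a tubulin cofactor, had 39.0, 43.6 and 172.4. Per kb of peak the log2 change at 10 h over the fast was -0.20 in Rbm15 and -0.79 in Tbca.

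A further set was highest in the fast or low at 10 h. Slc1a2, a glutamate transporter, had 808.7 (fasted), 68.3 (2 h) and 19.2 (10 h) normalized tags, and its peak measured 3553, 912 and 500 bp. A region over Cfap43 and Gsto1 had 655.6, 181.1 and 112.7 at 7.89, 9.57 and 5.15-fold over input. In Igf1, insulin-like growth factor 1, the main region had 254.4, 384.0 and 61.3, lowest at 10 h, whereas a second one in the 5′ untranslated region had 15.7, 43.1 and 62.9, highest at 10 h. Dido1 had 144.5, 131.8 and 31.7, and Arhgef26 191.6, 109.5 and 49.2. The lncRNA genes 4930481A15Rik and AC117816.1 had 174.5, 32.7 and 48.7 and 398.0, 83.4 and 322.3, and the Gfra1 region that changed most 149.3, 35.1 and 47.1.

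Against these stood regions with nearly level counts. The 5 flattest were in Usp34, a ubiquitin protease, with 62.8 (fasted), 63.1 (2 h) and 62.4 (10 h) normalized tags, and in Eea1, Spag9, Kpna1 and Vps13c, each within a log2 span of 0.083. Among the 694 regions with single matches and at least 30 normalized tags at each time, 349 stayed within 2-fold and 66 spanned at least 4-fold, with a median span of 0.98 on the log2 scale.

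The regions of highest level and of highest enrichment were largely different genes. An intronic region over 1300002E11Rik and Map3k13 (chromosome 16, 21795580 to 21800761) was among the top by both, with 1975, 1468.9 and 1341.7 normalized tags (fasted, 2 h and 10 h) at 22.08, 15.13 and 16.44-fold over input. Fbxo3, an F-box protein, had 1669.3, 708.8 and 878.2 at 7.89, 7.3 and 5.52-fold, and Evi5, a GTPase-activating protein, 943.3, 1019.4 and 1205.5 at 6, 5.83 and 3.97-fold. The others near the top had lower enrichment. A region over Podn and Scp2 had 1305.6, 2170.6 and 1006.8, one over Gm30505 and Ahsg, the gene of fetuin-A, 895.3, 1291.1 and 1595.6. The 2 regions of Cps1, carbamoyl phosphate synthetase of the urea cycle, had 1109.2 and 718.9 in the fast and shared a single peak of 2311.4 at 2 h and of 3699.6 at 10 h. Ranked by the lowest of its 3 folds, Dennd2a came first, at 49.25, 24.75 and 42.5-fold on 51.8, 49.3 and 26.8 normalized tags, with Atrnl1 next, at 15.89, 15.67 and 16.73-fold on 158.8, 85.8 and 98.5. Tpcn2 and Agtpbp1 completed these 5, with 13.65 to 26.51-fold and 12.52 to 19.17-fold.

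**Figure D5:**
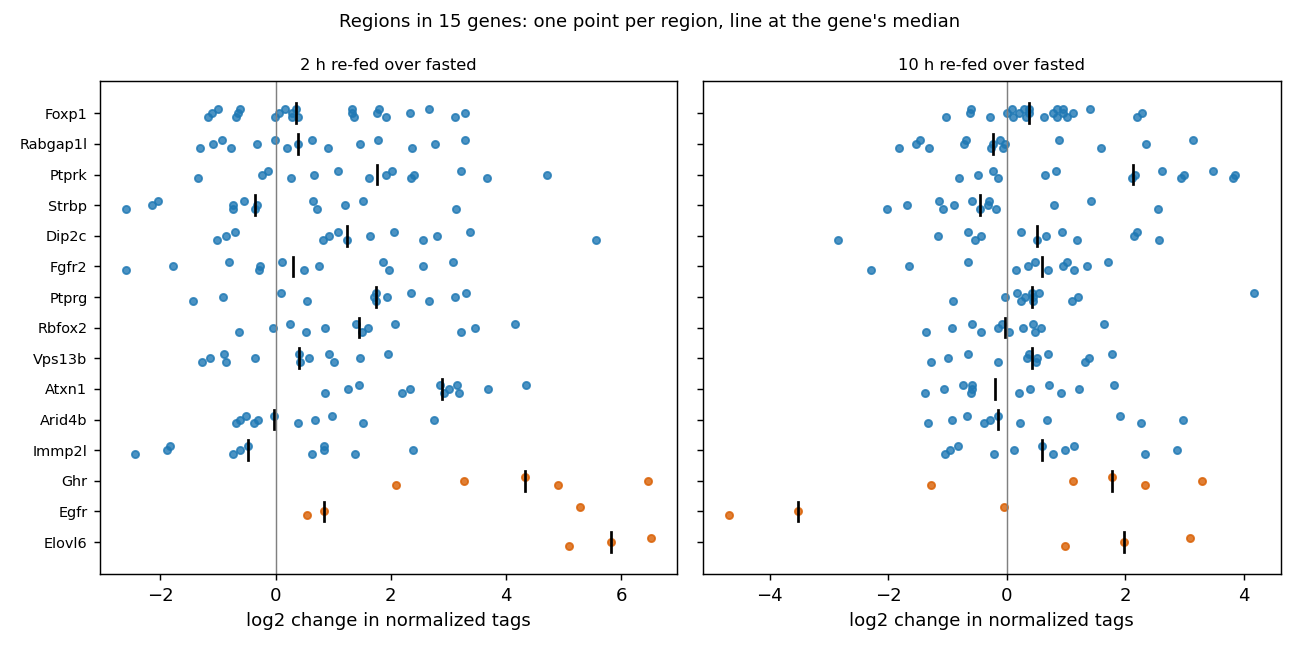
Log2 change of normalized tags of each region in the 12 genes with most regions and in Ghr, Egfr and Elovl6, for 2 h over fasted and 10 h over fasted. Each point is 1 region, the short black bar the gene's median and the grey line no change. All 12 Atxn1 regions, which met 10 distinct 2 h peaks, and all 5 Ghr regions lie above 0 at 2 h, and those of Strbp lie on both sides.

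Genes of liver function were then taken by list, with 8.36% of all genes and 11.2% of coding genes hosting a region as the background. Most genes in the function lists had a fasted peak, and 37.9% of all genes with one hosted a region. On that base hosts were 10 of 23 (nuclear RNA-binding), 13 of 19 (insulin), 8 of 19 (lipogenesis) and 8 of 19 (oxidation). They were 5 of 11 (gluconeogenesis), 3 of 14 (glycolysis), 6 of 12 (glycogen) and 11 of 17 (nuclear receptors). The rest were 2 of 15 (clock), 3 of 15 (bile acid) and 6 of 15 (secreted proteins). Gene length differed between lists and was not adjusted for. Paraspeckle and other nuclear RNA-binding proteins had 10 hosts of 24 genes, among them Nono, Pspc1, Hnrnpk, Hnrnpm, Hnrnpa2b1, Matr3, Srsf11, Celf1 and Mbnl1. Of their 15 regions 6 were at least 2-fold higher at 2 h and 0 lower, beside 39.1% and 10.1% of all fasted peaks with a 2 h match, so the count of higher regions is near the background. Pspc1, a partner of NONO, had 3 regions with 14.3, 13.8 and 28.5 normalized tags in the fast, 22.8, 12.3 and 64.0 at 2 h and 29.5, 15.3 and 42.1 at 10 h. Celf1, a regulator of splicing, had 29.5, 22.3 and 35.2 in the fast, 175.4, 69.7 and 39.4 at 2 h and 94.7, 21.9 and 21.3 at 10 h, so all 3 were highest at 2 h. Srsf11, a splicing factor, had 501.1 (fasted), 285.9 (2 h) and 207.9 (10 h), and one Matr3 region 67.0, 509.7 and 206.3, the opposite order.

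The insulin and nutrient signalling list had 13 hosts of 25, with 24 regions, of which 10 were at least 2-fold higher and 4 lower at 2 h (background 39.1% and 10.1%), and 7 and 6 at 10 h (24.2% and 13%). Egfr, the epidermal growth factor receptor, had the sharpest contrasts: 1 region had 237.7 (fasted), 9296.4 (2 h) and 20.8 (10 h) normalized tags, another 491.1, 720.7 and 19.2 and the last 147.4, 263.1 and 142.8. The 9296.4 was the highest 2 h value of all 5050 regions. Over the 3 regions together, the Egfr peaks covered 3.59 kb (fasted), 19.8 kb (2 h) and 3.70 kb (10 h). Per kb they held 244, 518 and 49.4 normalized tags, at median folds over input of 2.08, 2.38 and 2.06. Rictor, a subunit of mTORC2, had 36.1, 10.9 and 24.6 in 1 region and 28.5, 65.0 and 28.5 in the other, with opposite courses. The receptor gene Insr had 35.7, 30.3 and 93.6 in one region and 20, 15.6 and 15.9 in another. The single region of Irs1, an insulin receptor substrate, had 35.7, 52.6 and 131.3 and that of Irs2 9.98, 24.7 and 8.21, so the substrates differed in the time of their highest value.

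The lipogenesis and sterol synthesis list had 8 hosts of 26, with 12 regions, 7 at least 2-fold higher and 0 lower at 2 h (background 39.1% and 10.1%) and 6 and 0 at 10 h (24.2% and 13%). The median log2 change over those 12 was 1.07 at 2 h and 1.04 at 10 h, beside 0.41 and 0.16 over all 5050. Elovl6, a fatty acid elongase, had 16.2 (fasted), 1481.2 (2 h) and 138.4 (10 h) normalized tags in 1 region. Its other 2 had 8.08 and 13.3 in the fast and shared a 2 h peak of 455.6. Over the 3 regions together, the Elovl6 peaks covered 1.74 kb (fasted), 18.7 kb (2 h) and 3.74 kb (10 h). Per kb they held 21.6, 103.8 and 55.3 normalized tags, at median folds over input of 2.53, 2.16 and 2.33. Both regions of Acaca, acetyl-CoA carboxylase, were lowest in the fast, with 30.9 and 21.4 there, 56.9 and 97.7 at 2 h and 53.1 and 46.0 at 10 h. Acly, ATP citrate lyase, had 8.08, 29.4 and 53.1, and Srebf1, the transcription factor of lipogenesis, 36.1, 72.5 and 61.8. Gpam, glycerol phosphate acyltransferase, had 117.0, 256.9 and 296.0 in its stronger region.

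Fatty acid oxidation and ketogenesis had 8 hosts of 22, with 9 regions, 2 at least 2-fold higher and 2 lower at 2 h (background 39.1% and 10.1%). Cpt1a, which admits fatty acids to the mitochondrion, had 51.3 (fasted), 9.48 (2 h) and 12.0 (10 h) normalized tags, and Acadl, an acyl-CoA dehydrogenase, 78.4, 10.9 and 15.9, both highest in the fast. Acsl5, an acyl-CoA synthetase, had 74.6, 76.8 and 108.9. Ppara, the fasting-responsive nuclear receptor, had 211.1, 726.8 and 217.8, and Etfa shared 1 re-fed peak between 2 regions, with 26.1 and 161.7 in the fast against 188.2 at 2 h and 226.0 at 10 h.

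Gluconeogenesis had 5 hosts of 17, with 10 regions, 5 at least 2-fold higher and 1 lower at 2 h (background 39.1% and 10.1%). Fbp1, fructose bisphosphatase, had 388.0 (fasted), 840.2 (2 h) and 714.1 (10 h) normalized tags, and Ppargc1a, a coactivator of the fasting response, 114.1, 11.4 and 59.1. These 2 genes of the list thus had opposite courses. Pcx, pyruvate carboxylase, had 4 regions with 21.4 to 39.5 in the fast, 50.7 to 137.0 at 2 h and 15.3 to 58.5 at 10 h, and every one was highest at 2 h. Creb1, a transcription factor of the fasting response, had 35.2, 49.4 and 102.2 in the fast, 196.8, 61.2 and 148.0 at 2 h and 39.4, 56.9 and 52.5 at 10 h, again highest at 2 h. Glycolysis and glucose uptake had 3 hosts of 23, where Pdk1, a pyruvate dehydrogenase kinase, had 39.5, 19.4 and 46.0. Glycogen metabolism had 6 hosts of 16, with 19 regions, 10 at least 2-fold higher and 0 lower at 2 h (background 39.1% and 10.1%), and 2 and 2 at 10 h (24.2% and 13%). Its 7 Gbe1 regions, in the gene of the branching enzyme, had between 15.2 and 78 in the fast, 19.9 and 184.0 at 2 h and 9.85 and 144.5 at 10 h. The 7 regions of Gsk3b, glycogen synthase kinase 3 beta, had between 14.3 and 145.5 in the fast, 27.5 and 132.8 at 2 h and 14.2 and 340.4 at 10 h.

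Nuclear receptors and partners had 11 hosts of 25, with 31 regions, 14 at least 2-fold higher and 5 lower at 2 h (background 39.1% and 10.1%), and 9 and 9 at 10 h (24.2% and 13%). Nr3c1, the glucocorticoid receptor, had 18.5 (fasted), 191.6 (2 h) and 81.5 (10 h) normalized tags, and one Thrb region, of a thyroid hormone receptor, 17.6, 305.8 and 157.6, both highest at 2 h. The 9 regions of the coactivator gene Ncoa2 had between 8.56 and 45.2 in the fast, 10.9 and 191.6 at 2 h and 6.57 and 56.9 at 10 h. Rxra, the shared partner of many of these receptors, had 76.5, 26.1 and 21.3, highest in the fast. Among 22 clock genes 2 were hosts: Clock, with 56.6 and 18.5 in the fast, 158.4 and 100.5 at 2 h and 19.7 and 152.7 at 10 h, and Rora, with 4 regions.

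Bile acid and xenobiotic metabolism had 3 hosts of 22. Abcb4, the phospholipid transporter of the bile canaliculus, had 174.5 (fasted), 14.2 (2 h) and 138.4 (10 h) normalized tags in 1 region and 30.9, 12.8 and 43.2 in the other, both lowest at 2 h. Cyp2c70, a bile acid hydroxylase, had 35.7, 291.1 and 27.4, high at 2 h alone. Nr1i2, the pregnane X receptor, had 45.6, 15.6 and 17.5 in 1 region and 12.8, 21.3 and 72.8 in the other. Secreted proteins and the urea cycle had 6 hosts of 27, with 4 of 7 regions at least 2-fold higher and 0 lower at 2 h (background 39.1% and 10.1%), 2 of the 7 being the Cps1 pair that shares a 2 h peak. F5, coagulation factor V, had 100.3, 96.7 and 61.8. Among cell type markers, Cps1 was the host of 7 for hepatocytes and Stab2 of 5 for endothelium (9.03, 5.22 and 31.7). Ptprc was the host of 5 in a joint list for lymphocytes and erythroid cells (10.5, 18.5 and 20.2). The Kupffer, stellate and cholangiocyte lists had 0. A marker without a peak is not thereby unexpressed, since a peak is an excess over input, and the part of other cell types in these values was not tested.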

How the data were processed

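RNA immunoprecipitation with an anti-NONO antibody was sequenced from liver nuclei, and 4 peak lists on mm10 were used. Per the submitters' processing notes, HOMER, STAR 2.4.0k and FastQC 0.11.2 were used on mm10, and per the labels libraries came from a stranded kit after depletion of ribosomal RNA. Per the file headers, the authors searched windows of 500 bp, joined within 1000 bp and without strand, for peaks at least 2-fold over the matching input, with a threshold of 11 tags (8 for IgG). The deposited signal is the authors' normalized tag count, in tags per 10000000. The authors deposited a fold, the ratio of immunoprecipitate over input, and the deposited score is HOMER's own. Values here are per peak, so a level covers a different length at each time. Normalized tag counts came out as whole tags (tolerance 0.15) for 100% of values, and 0 tags would allow up to 1.42 to 1.64 normalized tags.

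Fasted peaks were matched by an overlap of 1 bp, and the tags of several matching peaks were summed, with the authors' fold recomputed from their sums. Gene bodies and parts came from GENCODE M21 by overlap and by midpoint. With 1 library per group no test was made, and 2-fold was the size used for counts. Intervals are exact at 95%. Overlap and matching were tested on simulated data. Python 3.11.15, numpy 2.4.6, pandas 2.3.3, scipy 1.17.1 and matplotlib 3.10.9 were used.

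The regions, gene lists and rule for names were chosen with earlier results of these data known. Named by rule are the 10 regions with most fasted tags, the 5 with the highest lowest fold, the 5 largest and 5 smallest changes per pair of times and the 5 flattest (single matches and at least 30 normalized tags at each time), the 12 genes with most regions and up to 4 genes per list, of which some are not reported here. Other genes named, among them those before gene starts, in untranslated regions, with hairpins, at the ends of the range of gene medians and further list genes, were chosen after their values were seen. Alternatives were the overlap required, the treatment of IgG, fold, list length, width and gene assignment.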

Additional observations from a re-analysis of the deposited data

How the results depend on the processing

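No paired analysis was possible because a group consists of 1 library. Of the alternatives, 3 were added after seeing the data: half-open intervals, protein-coding gene bodies alone and widths within 25% of the fasted one. The number of regions was 2865 with at least 50% of the fasted peak covered at each other time, 3129 with IgG peaks widened by 1000 bp and 851 with at least 3-fold over input, against 5050. It was 3537 with no IgG peak over the matching peaks, 3394 with lists of equal length and 5043 with half-open intervals. The share in introns was 84.1% where no exon could be touched and 91.8% at 3-fold, and host genes numbered 2643 by midpoint and 2461 for coding genes. The median log2 change at 2 h over the fast was -0.27 per kb, -0.24 in single windows of 500 bp, -0.27 where widths were within 25% (364 regions), 0.20 with single matches, 0.10 for fold over input and 0.079 with no IgG peak over the matches. At 10 h over the fast the same settings gave -0.14, -0.098, -0.16, 0.088, 0.048 and 0.015, and at 10 h over 2 h 0.14, 0.21, 0.15, -0.11, -0.057 and -0.061. The largest single matching peak gave 0.40, 0.15 and -0.20, close to the main values.

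In regions named for a comparison, the log2 change of that comparison took the opposite sign as fold over input at 2 h in Hsp90b1 (-0.055), Rbm47 (-0.81), Dhtkd1 (0.14), 4930481A15Rik (0.15) and Gfra1 (0.30), and at 10 h over the fast in Rbm47 (-0.75), Mgst1 (-0.020), Dido1 (0.35), Igf1 (0.12) and Arhgef26 (0.49). At 10 h over 2 h it did so in Ghr (0.013), Gphn (0.12), Dhtkd1 (-0.0065), Tatdn1 (-0.071), Rbm15 (-0.076), Tbca (-0.084), Adk (0.028) and Cdh2 (0.27). Per kb it did so in Wac (-0.35 at 2 h, -0.27 at 10 h) and, for 10 h over 2 h, in Tbca (-0.11) and Cdh2 (0.32). Over all 43 named regions the sign per kb was opposite in 12 (2 h over fasted), 9 (10 h over fasted) and 9 (10 h over 2 h), of which 3, 5 and 4 had a tag change of at least 2-fold, among them Cps1 (-0.75 and -0.060 at 2 h and 10 h over the fast) and Dido1 (0.024 at 10 h over 2 h). The cause was not tested beyond these values, in which the width of the peak and the input move with the tags. GC content, repeats and motifs of the regions were not run, since annotated exons covered the central 300 bases of 257 regions (5.09%) alone. Depth limits single regions: 0 tags would allow up to 1.43 (fasted), 1.42 (2 h) and 1.64 (10 h) normalized tags.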

Other observations

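The 290 regions over no gene body were mostly close to genes. The median distance to the nearest gene was 1.163 kb, with 110 regions within 5 kb past a 3′ end, 105 within 5 kb before a 5′ start and 11 more than 50 kb from any gene. The strongest, 1528 bp past the 3′ end of Abca6, an ABC transporter gene, had 1782 (fasted), 1316.2 (2 h) and 1536 (10 h) normalized tags, the third highest fasted value of all regions. Adh6b, an alcohol dehydrogenase gene, had a region 24719 bp past its end with 446.4, 333.3 and 612.3, and Cyp2c37, a cytochrome P450 gene, one 3198 bp past its end with 272.0, 93.4 and 169.6. Of further regions before gene starts, one 3173 bp before the start of Cyp2e1 had 192.6, 12.8 and 18.6, one 4177 bp before Cyp2j6 150.2, 24.2 and 75 and one 2842 bp before Akr1c14 107.5, 8.06 and 39.4. These were picked from the strongest after their values were seen, and neighbouring genes of the same families on either side make the source of the RNA uncertain.

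A few regions changed in fold over input while their tags changed less, unlike most. Rnf216, a ubiquitin ligase gene, had 170.2, 165.0 and 116.0 normalized tags (fasted, 2 h and 10 h) at 7.89, 6.25 and 19.7-fold over input. Garem1, an adaptor of growth factor receptors, had 66.6, 33.2 and 61.8 at 2.11, 6.66 and 2.30-fold. Hook3, a microtubule-linked adaptor, had 236.3, 429.1 and 441.6 at 10.95, 8.79 and 4.09-fold, its enrichment lower where its tags were higher. C4a, a complement component, had 120.8, 149.8 and 85.9 at 10.43, 4.56 and 8.51-fold. The highest folds of Rnf216 (10 h) and Garem1 (2 h) rest on low input levels, 5.89 and 4.98 normalized tags. The 2 h match of Rnf216 and the 10 h matches of Garem1 and Hook3 met an IgG peak. Without replicates the values of all these regions remain single values.

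A non-coding exon region over Sass6, Gm42893, Mfsd14a and Gm42457 had 305.2 (fasted), 26.6 (2 h) and 380.8 (10 h) normalized tags, at 2.61, 2.81 and 2.08-fold over input. Its peak was 2108, 867 and 2178 bp wide, and its input level was 117, 9.47 and 183 normalized tags.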
